A study of Mus musculus with 8 samples.

Results

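Unstimulated peritoneal macrophages that lack the Fc receptor γ chain were compared with unstimulated macrophages of wild-type mice. The comparison took all 4 samples that the labels give as not stimulated, 2 of the genotype Fcg-chain KO (FcgKO) and 2 of the genotype WT, out of 8 samples in the series, and every probe with a gene symbol. All 8 samples came from C57BL/6 mice. Cells washed from the abdominal cavity of naive mice were left to attach overnight. The medium held 10% serum and, as a source of the growth factor M-CSF, 15% conditioned medium of L929 cells. Cells that had not attached were thrown away and the medium was renewed. The 4 samples described here received nothing further, and the other 4, again 2 of each genotype, received IFNγ at 10 ng/ml for 6 h. Messenger RNA was hybridised to bead arrays of the type Illumina MouseRef-8 v2.0. The labels give neither how the null allele was made nor its backcross history, and no age or sex. They do not say whether the 2 samples of a group came from separate mice, and a p-value here covers no more than the variation between these samples, part or all of which may be technical.

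The γ chain, encoded by Fcer1g, is a small membrane adaptor with an immunoreceptor tyrosine-based activation motif (ITAM) in its tail. The activating receptors for IgG on mouse macrophages and the high-affinity receptor for IgE on mast cells need it to reach the cell surface and to signal, and several C-type lectins and other receptors pair with it too. On receptor clustering, Src-family kinases phosphorylate the ITAM and the kinase Syk docks there. The inhibitory receptor FcγRIIb carries its own inhibitory motif and does not need the chain.

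Fcer1g was read first, as a check of the genotype labels. Its intensity was 17567 and 18350 in the WT samples and 95.7 and 95.6 in the FcgKO samples. Both FcgKO values lay below the median probe of their arrays, which was 103 on each, so only a lower limit of the difference can be given. The transcript was at least 174-fold lower in FcgKO (limma, adjusted p = 4.98e-10). The replicates of a group correlated across probes with r from 0.9959 to 0.9972, where probes are not independent replicates. Of 10 genes chosen as markers of resident peritoneal macrophages, 7 were measured, all above the array median on all 4 arrays, and 0 of them were called different. Gata6, the transcription factor of large peritoneal macrophages, read 1019 and 1138 in WT and 1153 and 1236 in FcgKO. Adgre1, which encodes the surface protein F4/80, read between 4309 and 4715 on the 4 arrays. Timd4, a receptor for dying cells on resident macrophages, had the largest difference of the 7 and was lower, at 251 and 385 in WT and 165 and 183 in FcgKO, without overlap and without a call (log2 -0.84, adjusted p = 0.176).

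Of 23978 probes with a gene symbol, 111 (0.463%) were called different at an adjusted p below 0.05, 35 higher and 76 lower in FcgKO. Counted by gene, each represented by its brightest probe, 90 of 16593 genes (0.542%) were called, 29 (0.175%) higher and 61 (0.368%) lower in FcgKO. The median log2 difference over all genes was 0.0020, with a median standard error of 0.0538. Of the genes called, 4 were at least 2-fold higher, namely Ifi202b, Ccl7, Fcgr3 and Ccl12, and 12 were at least 2-fold lower. The unadjusted p was below 0.05 for 1445 genes. The count of called probes rests on both FcgKO samples and on most others, since it was 26 and 25 without FcgKO replicate 1 and 2, 59 without WT replicate 1, 55 without either of the WT samples with IFNγ, which enter the estimate of the spread, and 167 without either FcgKO sample with IFNγ. Fitted to the 4 unstimulated samples alone, 21 of 48 genes named by rule besides Fcer1g lost their calls, namely Cd244a, Cd48 and Olfml2b near Fcer1g, and Ccl6, Ccl12, Clec2d, Clec4e, Cma1, Enc1, Fcgr1, Folr2, Gata2, Gusb, Iqgap2, Klhl6, Lyplal1, Malt1, Ncf4, Slc12a2, Sod2 and Upp1 elsewhere. Of the 90 genes, 14 kept their call without each of the 8 samples in turn. Among the 49 genes named by rule here, those are Fcer1g, Uap1, Mmp9, Hp, Gsta3, Mmp14, Flrt3, Aim2, Daglb, Fcgr3 and Ifi202b.

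The receptors for antibodies came next, since the chain belongs to them. Transcripts of 3 of the receptors were higher without the chain. Of these, Fcgr3 and Fcgr2b lie close to Fcer1g (places -30 and -41 in the gene order described below), and only Fcgr1 lies elsewhere. Apart from Fcer1g itself none of the 11 measured genes of this group was called lower. Over all genes 0.542% were called, and 0.175% were called higher. Fcgr3 encodes FcγRIII, an activating receptor for IgG that pairs with the chain. It read 4948 and 4938 in WT and 11400 and 11592 in FcgKO, a difference of 1.22 on the log2 scale (SE 0.0515, adjusted p = 8.36e-05). The replicates were close and the genotypes did not overlap. Fcgr2b, which encodes the inhibitory FcγRIIb, read 3660 and 3554 in WT and 5717 and 6223 in FcgKO (log2 0.73, SE 0.0713, adjusted p = 0.0074). A second Fcgr2b probe was also called higher (log2 0.63, adjusted p = 0.0042), and the third, a dim one, was not (log2 0.06, adjusted p = 0.917). Fcgr1, which encodes the high-affinity receptor FcγRI and lies on another chromosome, read 648 and 646 in WT and 792 and 847 in FcgKO (log2 0.34, SE 0.0526, adjusted p = 0.0456). Fcgr4, the gene of FcγRIV, read 1250 and 2654 in WT and 2835 and 4006 in FcgKO. Both FcgKO values were above both WT values, but the replicates spread widely and the gene was not called (log2 0.89, adjusted p = 0.471). Fcgrt, the gene of the neonatal Fc receptor, was not called (log2 0.20, adjusted p = 0.712). The median log2 difference of the 11 genes was -0.10, and 6 of them lie close to Fcer1g on its chromosome. In the window around Fcer1g described below, 10.5% of genes were called. Whether the receptors differ from their neighbours was not tested. The call of Fcgr2b was lost without FcgKO replicate 2 (adjusted p = 0.0772), and that of Fcgr1 when any 1 of the 4 unstimulated samples or of the WT samples with IFNγ was left out (adjusted p up to 0.259). Fcgr1 was also not called with background correction, a filter on dim probes or a trend in the prior variance.

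Genes close to Fcer1g were therefore kept apart from genes elsewhere. In a knockout, DNA on both sides of the targeted gene can come from the strain in which the allele was made, so that for these neighbours the loss of the chain and the DNA around the gene cannot be told apart. Close was taken as within 150 annotated genes on either side in the gene order of chromosome 1, and a gene's place is given below as the number of genes from Fcer1g, negative before it and positive after it. Of 114 measured genes in that window, 12 were called (10.5%), 4 higher and 8 lower, Fcer1g included. Of 16479 genes elsewhere, 78 were called (0.473%), 25 higher and 53 lower. The share fell with distance: 6 of 37 genes within 50 places (16.2%), 6 of 77 beyond 50 and up to 150 (7.79%), 1 of 84 beyond 150 and up to 300 (1.19%), and 4 of 703 on the rest of the chromosome (0.569%), beside 73 of 15681 on other chromosomes (0.466%). The median absolute log2 difference was 0.197 within 50 places, 0.0396 beyond 50 and up to 150, and 0.0538 over the whole window. Over genes outside the window of 150 it was 0.0438, so the larger median was confined to the nearest 50 places. Both sides of Fcer1g held called genes, 4 of 41 before it and 7 of 72 after it. By brightest probe, the 1 gene called between 150 and 300 places was Sccpdh (log2 -0.55), and the 4 farther out were Gsta3, Gpc1, Ikbke and Lyplal1. Other probes of Capn2 and Zbtb18, between 150 and 300 places, were called as well, are described below and are left out of these shares. Sccpdh, Gpc1 and Ikbke are named because of their place, after their values were seen. Without FcgKO replicate 1 and 2, the window of 150 places held 6 and 5 called genes, and the genes elsewhere 13 and 15. Calls elsewhere were 36 without WT replicate 1, 32 without either WT sample with IFNγ and 123 without either FcgKO sample with IFNγ.

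**Figure D1:**
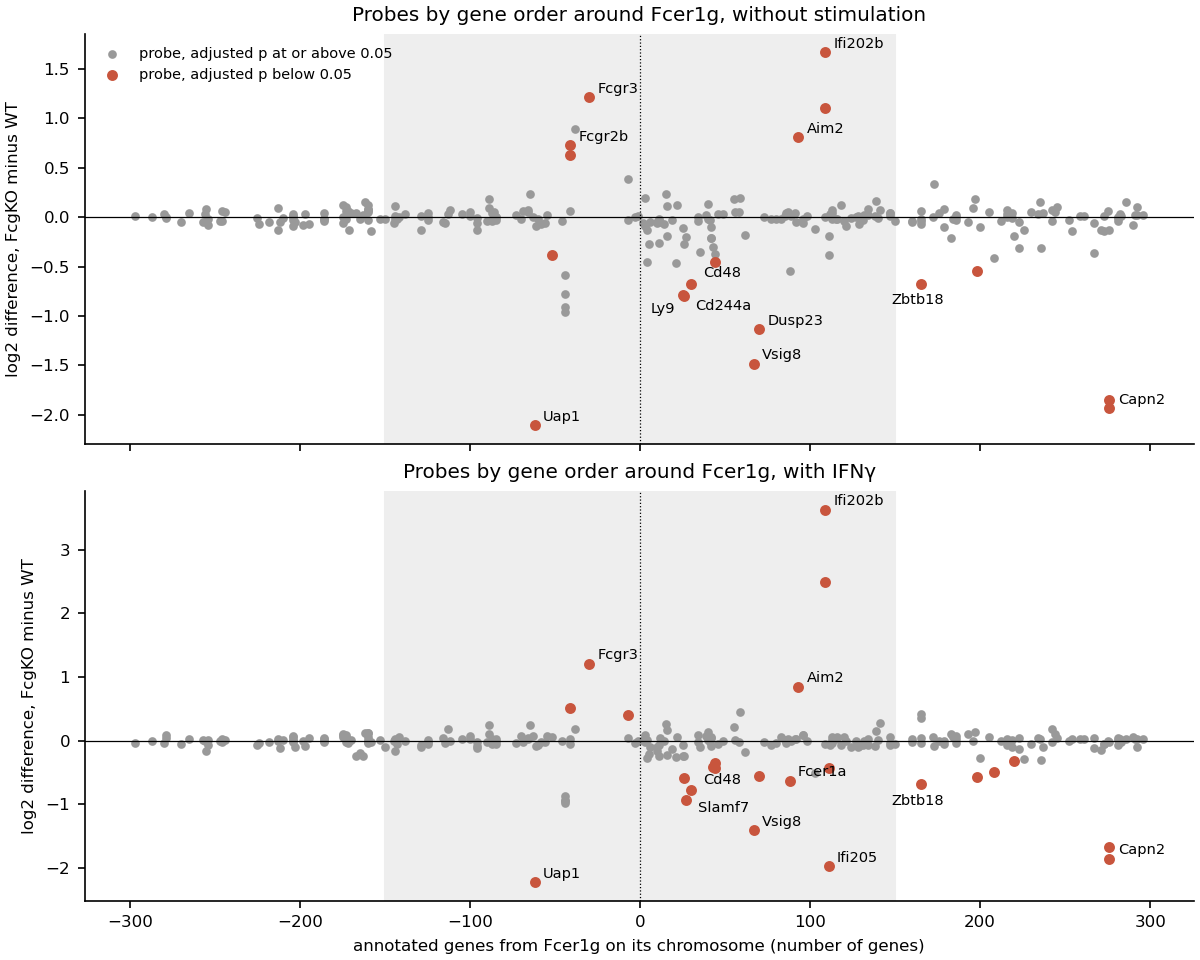
Log2 difference between FcgKO and WT (vertical axis) of each probe within 300 annotated genes of Fcer1g, against its place in the gene order of the chromosome (horizontal axis, number of genes from Fcer1g), without stimulation (top) and with IFNγ (bottom). Red points were called at an adjusted p below 0.05, the grey band marks 150 genes on either side, and Fcer1g itself (log2 -7.55) is left out. Most called probes lie inside the band, and 2 probes of Capn2 are called at place 276.

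Among the close genes, 3 of the SLAM family fell and 2 of the IFI200 family rose. SLAM-family receptors are cell-surface proteins of immune cells that bind one another across cells, and 9 of their 10 measured genes lie in the window. In all, 3 of the 10 fell and 0 rose, with a median log2 difference of -0.13. All 3 lie in the window, where 10.5% of genes were called, and within 50 places, where 16.2% were. Whether the family differs from its neighbours was not tested. Ly9 (place 26), a receptor that binds itself, read 579 and 665 in WT and 358 and 356 in FcgKO (log2 -0.80, adjusted p = 0.0348). A second Ly9 probe was not called (log2 -0.27, adjusted p = 0.674). Cd244a (place 25), the receptor for CD48, read 155 and 187 in WT and 99.7 and 97.2 in FcgKO. Its FcgKO values lay below the array median, which makes it at least 1.65-fold lower (adjusted p = 0.0095). A second probe near the array median was not called (log2 -0.11, adjusted p = 0.738). Cd48 (place 30), which encodes that ligand, read 136 and 168 in WT and 97.1 and 92.8 in FcgKO, at least 1.47-fold lower (adjusted p = 0.0232). Both genes were dim in WT as well. Cd84 (place 35) read 2922 and 2471 in WT and 1883 and 2346 in FcgKO and was not called (log2 -0.35, adjusted p = 0.696). The calls of Ly9, Cd244a and Cd48 were each lost without either FcgKO sample. That of Ly9 was also lost without either WT sample, and that of Cd48 without either WT sample with IFNγ, with adjusted p up to 0.251, 0.105 and 0.194.

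The IFI200 family holds interferon-inducible proteins that bind DNA in the cytosol or nucleus, and all of its 6 measured genes lie in the window. Of these, 2 rose, 0 fell and the median log2 difference was -0.01, where 10.5% of genes in the window were called. Whether this family differs from its neighbours was not tested either. Aim2 (place 93), the DNA sensor that builds an inflammasome, read 148 and 156 in WT and 276 and 258 in FcgKO (log2 0.81, SE 0.0601, adjusted p = 0.0019). Ifi202b (place 109), whose product binds DNA and in mouse macrophages can oppose AIM2, read 95.5 and 93.2 in WT and 250 and 360 in FcgKO. The WT arrays were below their medians, so it was at least 2.91-fold higher (adjusted p = 0.0055). A second Ifi202b probe also rose (log2 1.11, adjusted p = 0.0161), while the third read between 91.2 and 91.7 on all 4 arrays. Genes of this family are close copies of one another, and whether a probe reads more than 1 of them was not tested. Ifi205 read 120 and 130 in WT and 96.2 and 95.5 in FcgKO and was not called (log2 -0.39, adjusted p = 0.324), and Ifi204 had a log2 difference of -0.12 (adjusted p = 0.900).

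The other close genes that were called had no role in common that the lists used here would name. Uap1 (place -62) encodes the enzyme that makes UDP-N-acetylglucosamine, the sugar donor for glycoproteins. It read 559 and 641 in WT and 132 and 147 in FcgKO (log2 -2.10, SE 0.13, adjusted p = 0.000615), next to Mmp9 and Hp among the largest differences after Fcer1g. It was the only 1 of 12 measured genes of hexosamine and nucleotide-sugar synthesis that was called, and the others ranged from -0.06 to 0.31. Vsig8 (place 67), an immunoglobulin-domain protein of the cell surface, read 322 and 270 in WT and 105 and 106 in FcgKO (log2 -1.48, adjusted p = 0.0102). Dusp23 (place 70), a small dual-specificity phosphatase, read 390 and 304 in WT and 162 and 153 in FcgKO (log2 -1.13, adjusted p = 0.0056). Olfml2b (place -52), an olfactomedin-like extracellular protein, read 134 and 142 in WT and 106 in both FcgKO samples (log2 -0.38, adjusted p = 0.0225). The calls of Vsig8, Dusp23 and Olfml2b were lost without either FcgKO sample, those of Vsig8 and Olfml2b also without WT replicate 1, and that of Olfml2b without WT replicate 2 or either WT sample with IFNγ, with adjusted p up to 0.114, 0.0767 and 0.181.

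Probes of the same gene differed near Fcer1g. In the window, 15 of 154 probes were called (9.74%), against 96 of 23824 elsewhere (0.403%). Of the 29 genes in the window with more than 1 probe, 5 had a called probe and 0 had all probes called. Elsewhere, 36 of 4748 such genes had a called probe and 5 had all. Capn2 (place 276), which encodes a calcium-dependent protease, was the clearest example outside the window and was singled out after its values were seen. One of its probes read 377 and 374 in WT and 98.3 and 111 in FcgKO (log2 -1.85, adjusted p = 2.25e-05). A second read 471 and 448 in WT and 129 and 112 in FcgKO (log2 -1.94, adjusted p = 3.26e-05). The brightest Capn2 probe, which stands for the gene in the counts, read 527 and 498 in WT and 496 and 441 in FcgKO and was not called (log2 -0.13, adjusted p = 0.714). Of 5 probes of Zbtb18 (place 165), 1 was called lower (log2 -0.67), and the other 4 lay between -0.07 and 0.06.

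Among receptors and signalling genes that act with the chain, Clec4e and Malt1 were called lower. Of 13 measured genes of non-Fc receptors that pair with it, 1 fell and 0 rose, with a median log2 difference of -0.05, where 0.542% of all genes were called. The gene that fell was Clec4e, which encodes Mincle, a C-type lectin for fungal and mycobacterial glycolipids. It read 6100 and 5088 in WT and 3383 and 3460 in FcgKO (log2 -0.70, SE 0.0834, adjusted p = 0.0160), and its other probe was not called (log2 -0.94, adjusted p = 0.0791). Clec4n, the gene of Dectin-2, read 10448 and 7426 in WT and 5170 and 5947 in FcgKO, without overlap, and was not called (log2 -0.67, adjusted p = 0.261). Of 16 adaptors with an ITAM and their other receptors, 0 were called, and Tyrobp, the related adaptor DAP12, read between 6208 and 6990 on the 4 arrays. Of 26 kinases and relays behind an ITAM, 1 fell and 0 rose (median 0.01). It was Malt1, the protease of the Card9 and Bcl10 complex, at 171 and 192 in WT and 139 and 135 in FcgKO (log2 -0.40, adjusted p = 0.0348). Syk had a log2 difference of -0.07 (adjusted p = 0.794). Among 18 inhibitory receptors and phosphatases, Fcgr2b was the only gene called. The calls of Clec4e and Malt1 were lost without either FcgKO sample or either WT sample with IFNγ, and that of Malt1 without WT replicate 2, with adjusted p up to 0.157 and 0.232.

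Away from Fcer1g, the largest falls included genes of 2 matrix proteases, of haptoglobin and of a chemoattractant receptor. Mmp9, which encodes a secreted gelatinase, read 4759 and 4395 in WT and 1018 and 1122 in FcgKO (log2 -2.10, SE 0.0998, adjusted p = 0.000139). Mmp14 encodes a membrane-bound protease that activates other matrix proteases. It read 3250 and 3400 in WT and 1546 and 1600 in FcgKO (log2 -1.08, SE 0.0629, adjusted p = 0.000495). These were the 2 genes called among 23 measured matrix proteases, plasminogen-system genes and inhibitors, whose median log2 difference was 0.01. Plau, the urokinase gene, went the other way without a call, from 261 and 377 in WT to 657 and 609 in FcgKO (log2 1.01, adjusted p = 0.149). Of 20 acute-phase and granule genes, 2 fell and 0 rose (median -0.03), where 0.542% of all genes were called. Hp encodes haptoglobin, which binds free haemoglobin, and read 2093 and 2113 in WT and 417 and 583 in FcgKO (log2 -2.09, SE 0.183, adjusted p = 0.0043). Both of its other probes fell too, by 2.06 and 1.89 on the log2 scale. Fpr2, a receptor for formylated peptides and other chemoattractants, read 5512 and 5357 in WT and 2290 and 2520 in FcgKO (log2 -1.18, adjusted p = 0.0040). Saa3, S100a9 and Lcn2 in the same list had log2 differences of 0.11, -0.04 and -0.20 and were not called. Mmp9, Mmp14 and Hp kept their calls without each sample, and Fpr2 lost it without FcgKO replicate 1 (adjusted p = 0.052).

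**Figure D2:**
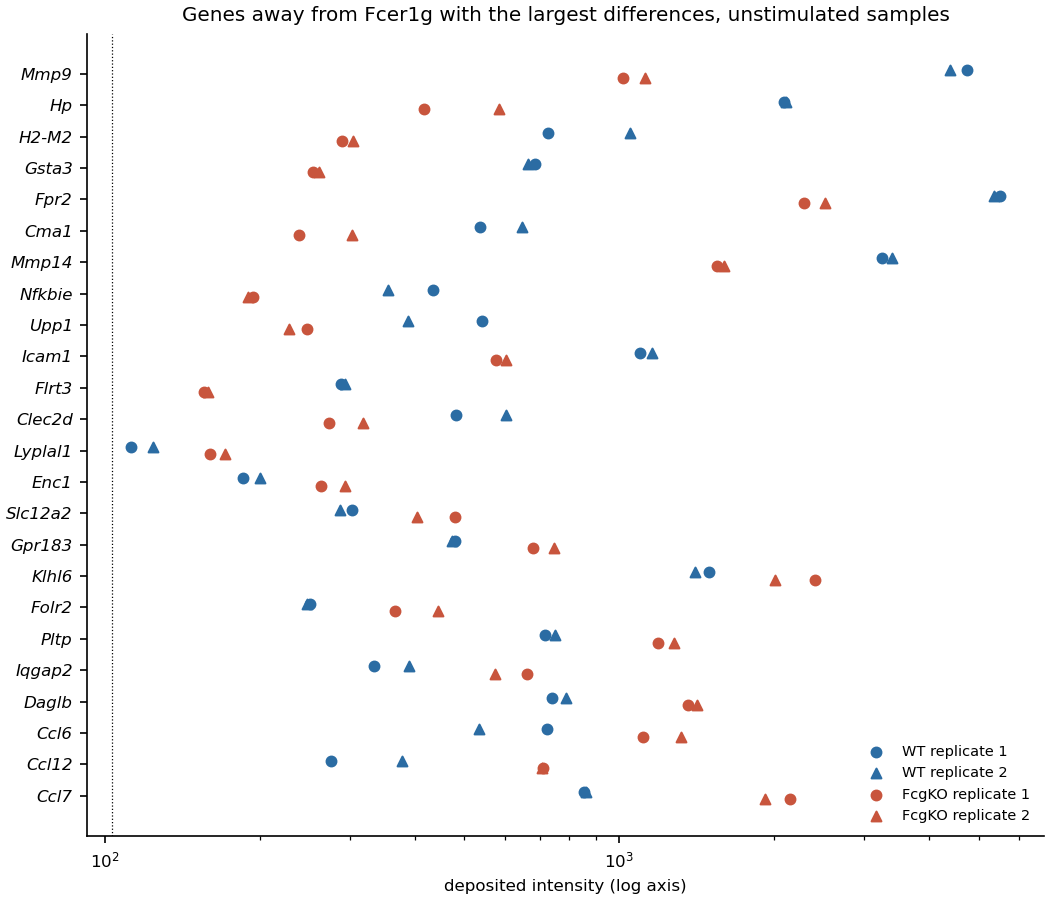
Deposited intensity (horizontal log axis) of the 12 genes with the lowest and the 12 with the highest log2 difference among genes called away from Fcer1g, in the 4 unstimulated samples. Blue marks are WT and red marks FcgKO, circles are replicate 1 and triangles replicate 2, and the dotted line is the array median. The marks of the genotypes do not overlap for any of these genes, which were chosen by their differences.

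Glutathione and redox genes held 2 of the lower genes. Gsta3, an alpha-class glutathione transferase, read 686 and 664 in WT and 254 and 261 in FcgKO (log2 -1.39, SE 0.0636, adjusted p = 0.000124), and its other probe, at the array median, was not called (log2 0.01). Gsta3 lies on the chromosome of Fcer1g but far outside the window, at place -2218. Sod2, the mitochondrial superoxide dismutase, read 11841 and 10999 in WT and 8368 and 7186 in FcgKO (log2 -0.56, adjusted p = 0.0348). Of 32 measured genes, 2 fell and 0 rose, with a median of -0.13, where 0.542% of all genes were called. Gclm, the regulatory subunit of the enzyme that starts glutathione synthesis, missed the threshold (log2 -0.65, adjusted p = 0.0568), and so did the cystine transporter gene Slc7a11 (log2 -1.04, adjusted p = 0.253). Ncf4, a cytosolic subunit of the NADPH oxidase, read 3059 and 3196 in WT and 2485 and 2379 in FcgKO (log2 -0.36, adjusted p = 0.0230), the 1 call among 10 genes of the oxidase and antimicrobial enzymes. Sod2 and Ncf4 lost their calls when any 1 of the 4 unstimulated samples or of the WT samples with IFNγ was left out, with adjusted p up to 0.168 and 0.187.

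Inflammatory cytokine genes and targets of the transcription factor NF-κB were lower in part. Of 25 measured genes 4 fell and 0 rose, where 0.542% of all genes were called. The median log2 difference was -0.31, beside 0.0020 over all genes. This list was written with earlier results of these data known, so its count and median are a description and not a test. Nfkbie encodes an inhibitor that NF-κB itself induces. It read 435 and 355 in WT and 194 and 189 in FcgKO (log2 -1.04, SE 0.149, adjusted p = 0.0348), and its second, dimmer probe was not called (log2 -0.26, adjusted p = 0.495). Icam1, an adhesion molecule for leukocytes, read 1099 and 1159 in WT and 577 and 603 in FcgKO (log2 -0.94, SE 0.0836, adjusted p = 0.0048). Relb, an NF-κB subunit of the alternative pathway, read 360 and 335 in WT and 210 and 193 in FcgKO (log2 -0.78, adjusted p = 0.0446). Tnfaip2, a cytokine-induced protein, read 1569 and 1554 in WT and 1042 and 943 in FcgKO (log2 -0.66, adjusted p = 0.0154), and its 2 other probes both fell by 0.62 on the log2 scale. Cytokine genes of the list did not pass the test, whose estimate of the spread also takes in the samples with IFNγ. Tnf read 635 and 748 in WT and 369 and 384 in FcgKO (log2 -0.87, adjusted p = 0.0671), and Il1b read 679 and 747 in WT and 286 and 340 in FcgKO (log2 -1.19, adjusted p = 0.458). The genotypes did not overlap for either gene, and an adjusted p of this fit does not rest on the unstimulated replicates alone. Nfkbia, the gene of the main NF-κB inhibitor, stood at 2466 and 1821 in WT and 997 and 959 in FcgKO (log2 -1.12, adjusted p = 0.101). Of 20 immediate early genes, 1 fell and 0 rose, namely Egr2, a zinc-finger transcription factor, with 881 and 859 in WT and 585 and 621 in FcgKO (log2 -0.53, adjusted p = 0.0120). All 5 called genes lost their calls without either FcgKO sample. Nfkbie, Relb, Tnfaip2 and Egr2 lost theirs also without WT replicate 1, Relb without WT replicate 2, and Nfkbie and Relb without either WT sample with IFNγ. The highest adjusted p was 0.247 for Nfkbie, 0.0663 for Icam1, 0.272 for Relb, 0.120 for Tnfaip2 and 0.123 for Egr2.

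The 250 bases before the start site are shown for the called members of this list and of the CC chemokine list described next, so that genes that fell and genes that rose can be set side by side. They come from RefSeq (build GRCm38.p6), which had an entry for 5 of the 7 genes, and Ccl7 and Relb are named only. Each is written 5′ to 3′ on the strand of the gene. Capitals mark matches on either strand to the AP-1 motif TGANTCA, the GAS motif TTCNNNGAA of STAT factors and the NF-κB consensus.
Nfkbie, chr17:45555450-45555699, plus strand: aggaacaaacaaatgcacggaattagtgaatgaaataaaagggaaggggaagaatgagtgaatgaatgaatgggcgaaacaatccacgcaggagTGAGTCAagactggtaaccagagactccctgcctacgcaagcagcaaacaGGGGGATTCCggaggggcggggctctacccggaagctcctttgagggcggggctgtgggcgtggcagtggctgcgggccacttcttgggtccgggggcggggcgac
Icam1, chr9:21015690-21015939, plus strand: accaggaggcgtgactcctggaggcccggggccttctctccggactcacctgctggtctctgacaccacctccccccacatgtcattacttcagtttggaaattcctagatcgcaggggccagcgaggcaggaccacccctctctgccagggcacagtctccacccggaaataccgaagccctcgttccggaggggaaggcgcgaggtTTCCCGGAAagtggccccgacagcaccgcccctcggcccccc
Tnfaip2, chr12:111442411-111442660, plus strand: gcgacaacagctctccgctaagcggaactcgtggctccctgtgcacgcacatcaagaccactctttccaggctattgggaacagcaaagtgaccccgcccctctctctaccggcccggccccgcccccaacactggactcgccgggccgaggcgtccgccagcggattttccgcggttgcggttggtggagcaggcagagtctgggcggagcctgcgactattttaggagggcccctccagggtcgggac
Ccl12, chr11:82101595-82101844, plus strand: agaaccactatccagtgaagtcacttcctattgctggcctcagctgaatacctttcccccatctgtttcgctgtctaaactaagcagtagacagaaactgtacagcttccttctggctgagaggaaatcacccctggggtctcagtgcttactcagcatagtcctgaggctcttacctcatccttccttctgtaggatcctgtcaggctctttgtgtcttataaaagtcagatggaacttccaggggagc
Ccl6, chr11:83593088-83593337, minus strand: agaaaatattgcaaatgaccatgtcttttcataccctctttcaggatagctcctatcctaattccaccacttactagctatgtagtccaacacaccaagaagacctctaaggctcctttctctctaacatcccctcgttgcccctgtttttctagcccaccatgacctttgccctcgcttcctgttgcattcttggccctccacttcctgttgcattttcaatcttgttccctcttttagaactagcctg
Nfkbie held the AP-1 motif at 156 to 150 bases before the start and the NF-κB consensus at 106 to 97, and Icam1 held the GAS motif at 42 to 34. The other 3 held none of the motifs in this window. Over all 32851 promoter windows of this length in the table, 6.75% held the AP-1 motif, 7.02% the GAS motif and 3.9% the NF-κB consensus. A match is a description of the letters and not a site shown to be bound. The NF-κB consensus was searched in a strict form that starts with GGG, and near matches are not marked. Icam1, which fell, holds such a near match, tggaaattcc, which differs from that form in its first base. Ccl12, which rose, holds another, ggaaatcacc, which on the opposite strand differs only in the a before its last cc. A search for near matches was not run, so they do not set genes that fell apart from genes that rose.

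Of 18 measured CC chemokines 3 rose and 0 fell (median log2 difference 0.04), and of 14 CXC chemokines 0 were called (median -0.06). Over all genes 0.542% were called, and 0.175% were called higher. The difference between the classes was not tested. Ccl7, which draws monocytes through the receptor CCR2, read 854 and 861 in WT and 2149 and 1925 in FcgKO (log2 1.25, SE 0.138, adjusted p = 0.0120). Ccl12, a mouse chemokine with the same receptor, read 275 and 378 in WT and 712 and 709 in FcgKO (log2 1.14, SE 0.162, adjusted p = 0.0348), and a second probe also rose (log2 1.00, adjusted p = 0.0154). Ccl6, a chemokine of rodents that myeloid cells make, read 724 and 533 in WT and 1112 and 1318 in FcgKO (log2 0.96, SE 0.135, adjusted p = 0.0337). Ccl2, another ligand of CCR2, read 459 and 323 in WT and 758 and 622 in FcgKO, with no overlap of the genotypes, and was not called (log2 0.83, adjusted p = 0.0867). The 3 largest CXC differences were negative and missed the threshold, although the genotypes did not overlap. The spread in this test was estimated over all 8 samples, those with IFNγ included. Cxcl1, a neutrophil chemoattractant, read 3628 and 3567 in WT and 1221 and 1110 in FcgKO (log2 -1.63, adjusted p = 0.0931). Cxcl13, which attracts B cells, read 1629 and 2200 in WT and 495 and 809 in FcgKO (log2 -1.58, adjusted p = 0.0671). Cxcl2, a relative of Cxcl1, read 1468 and 1132 in WT and 678 and 675 in FcgKO (log2 -0.93, adjusted p = 0.175). The calls of Ccl7, Ccl12 and Ccl6 were lost without either FcgKO sample, those of Ccl7 and Ccl12 without WT replicate 1, and those of Ccl12 and Ccl6 without either WT sample with IFNγ, with adjusted p up to 0.135, 0.250 and 0.224.

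**Figure D3:**
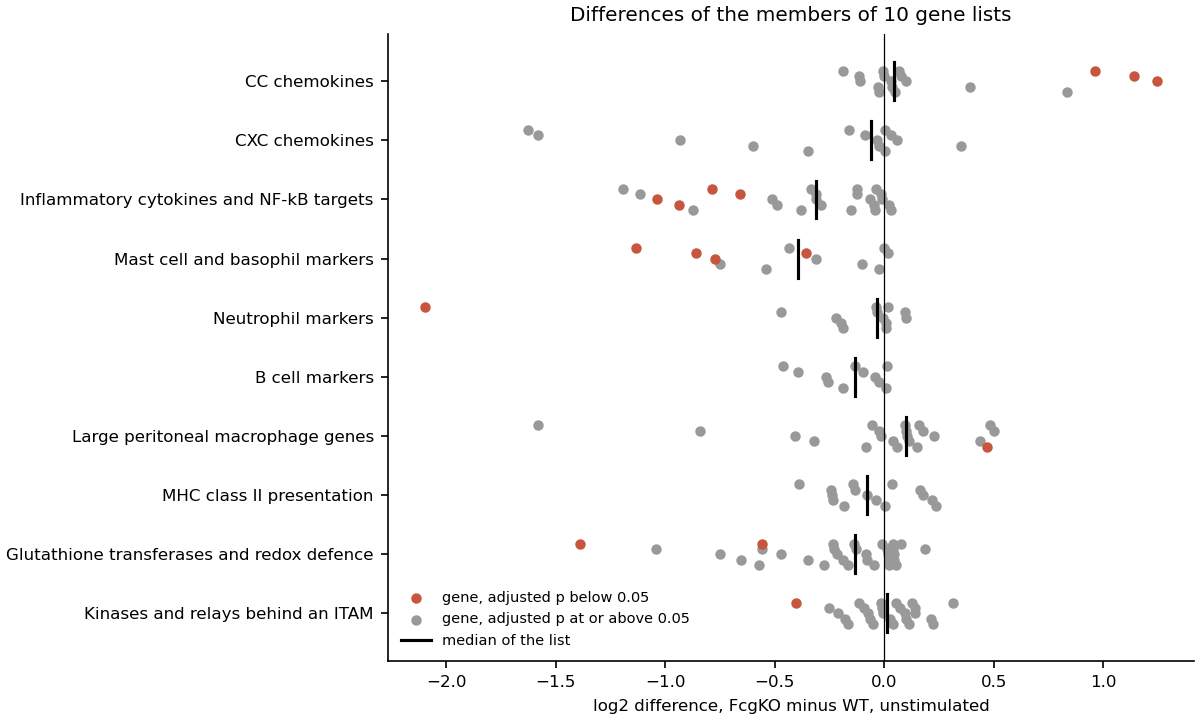
Log2 difference between FcgKO and WT without stimulation (horizontal axis) of each measured member of 10 gene lists (rows), 1 point per gene, red where called. Black bars are list medians. The CC chemokine list has 3 red points above 0.9 and the CXC list none, and the NF-κB and mast cell lists have medians of -0.31 and -0.39. The lists were written with earlier results of these data known.

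Other genes called away from Fcer1g belonged to several processes. The counts of list members below stand beside a share of 0.542% called over all genes. Daglb, a diacylglycerol lipase on the route to arachidonic acid, was 740 and 789 in WT and 1359 and 1418 in FcgKO (log2 0.86, SE 0.0511, adjusted p = 0.000503). It was the 1 gene called among 19 prostaglandin and leukotriene enzymes. Ptges, the inducible prostaglandin E synthase, had values of 3305 and 2801 in WT and 1258 and 937 in FcgKO and missed the threshold (log2 -1.49, adjusted p = 0.0716). Pltp, a phospholipid transfer protein of plasma, was 716 and 750 in WT and 1192 and 1280 in FcgKO (log2 0.75, adjusted p = 0.0225). Folr2, the folate receptor of tissue macrophages, was 250 and 247 in WT and 367 and 444 in FcgKO (log2 0.70, adjusted p = 0.0491). Fcna, the lectin ficolin A, was 5607 and 5230 in WT and 7545 and 7455 in FcgKO (log2 0.47, adjusted p = 0.0089). It was the 1 gene called among 22 genes of large peritoneal macrophages, and Folr2 the 1 called among 18 genes of small peritoneal macrophages and monocytes. Gpr183, a receptor that guides cells along oxysterols, was 478 and 473 in WT and 679 and 747 in FcgKO (log2 0.58, adjusted p = 0.0348). Gusb, a lysosomal glucuronidase, was 6723 and 7030 in WT and 8973 and 8720 in FcgKO (log2 0.36, adjusted p = 0.0348), the 1 call among 22 lysosomal genes. Its other 2 probes were not called (log2 0.16 and 0.21, adjusted p = 0.835 and 0.743). Iqgap2 (log2 0.77), Klhl6 (0.60), Slc12a2 (0.58), Enc1 (0.53) and Lyplal1 (0.49) complete the 12 highest. Their adjusted p lay between 0.0154 for Iqgap2 and 0.0439 for Klhl6. Of the other probes of genes in this paragraph, 1 of Klhl6 was called (log2 0.61). Not called were a second Klhl6 probe (0.09), those of Daglb (0.08), Pltp (0.29) and Lyplal1 (0.18), and 3 of Slc12a2 (0.00, 0.03 and 0.32). Daglb kept its call without each sample. Pltp, Folr2, Gpr183, Gusb, Klhl6, Slc12a2 and Enc1 lost theirs when any 1 of the 4 unstimulated samples was left out, Iqgap2 and Lyplal1 without either FcgKO sample or WT replicate 1, all of these without either WT sample with IFNγ, and Fcna without either FcgKO sample. The highest adjusted p was 0.272 for Gusb, 0.121 for Iqgap2, 0.130 for Lyplal1 and 0.0996 for Fcna.

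Among lower genes, H2-M2, a nonclassical MHC class I heavy chain, was 725 and 1050 in WT and 289 and 303 in FcgKO (log2 -1.56, SE 0.155, adjusted p = 0.0076). None of the other 18 measured class I presentation genes was called, and they ranged from -0.20 to 0.18. Flrt3, a membrane protein with leucine-rich repeats, was 288 and 293 in WT and 156 and 158 in FcgKO (log2 -0.89, adjusted p = 0.000268). A second Flrt3 probe fell too (log2 -0.79, adjusted p = 0.0024), and a dim one was not called (-0.08). Upp1, the uridine phosphorylase, was 541 and 388 in WT and 247 and 228 in FcgKO (log2 -0.95, adjusted p = 0.0337), and its other probes were not called (log2 -0.72 and -0.40). Clec2d, a C-type lectin that is a ligand of an NK cell receptor, was 481 and 602 in WT and 273 and 318 in FcgKO (log2 -0.87, adjusted p = 0.0426). Flrt3 kept its call without each sample, while H2-M2, Upp1 and Clec2d lost theirs without either FcgKO sample, Upp1 and Clec2d also without either WT sample with IFNγ, and Clec2d without WT replicate 2, with adjusted p up to 0.0953, 0.228 and 0.310.

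Mast cells also live in the peritoneal cavity and carry the IgE receptor. Of 12 measured markers of mast cells and basophils 4 fell in FcgKO and 0 rose, where 0.542% of all genes were called. Their median log2 difference was -0.39, beside 0.0020 over all genes. The markers too were listed with earlier results of these data known, so the count and median are a description and not a test. Cma1, a mast cell chymase, read 537 and 646 in WT and 238 and 302 in FcgKO (log2 -1.13, SE 0.135, adjusted p = 0.0160), and a second probe fell too (log2 -0.95). Cpa3, the mast cell carboxypeptidase, read 449 and 505 in WT and 249 and 277 in FcgKO (log2 -0.86, adjusted p = 0.0244). Its other probes were not called, at log2 differences of -0.90 (adjusted p = 0.129) and -0.28 (adjusted p = 0.347). Tpsab1, a tryptase, read 382 and 400 in WT and 219 and 239 in FcgKO (log2 -0.77, adjusted p = 0.0056). Gata2, a transcription factor of mast cells and basophils, read 176 and 184 in WT and 136 and 145 in FcgKO (log2 -0.36, adjusted p = 0.0351). Fcer1a, the IgE-binding subunit, read 227 and 217 in WT and 150 and 155 in FcgKO and was not called (log2 -0.54, adjusted p = 0.056). Fcer1a lies within the window around Fcer1g. Summed over the 12 markers, the intensity was 3116 and 3366 in WT and 2040 and 2274 in FcgKO, and 3 of the 12 were at or under the array median on all 4 arrays. Hdc, the histamine-forming enzyme that macrophages can make as well, had a log2 difference of -0.02 (adjusted p = 0.992). In these bulk samples fewer cells of a type and less RNA per cell cannot be told apart. Cma1 and Tpsab1 lost their calls without FcgKO replicate 1, Cpa3 and Gata2 when any 1 of the 4 unstimulated samples was left out, and Cma1, Cpa3 and Gata2 without either WT sample with IFNγ, with adjusted p up to 0.114 for Cma1, 0.223 for Cpa3, 0.0663 for Tpsab1 and 0.264 for Gata2.

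**Figure D4:**
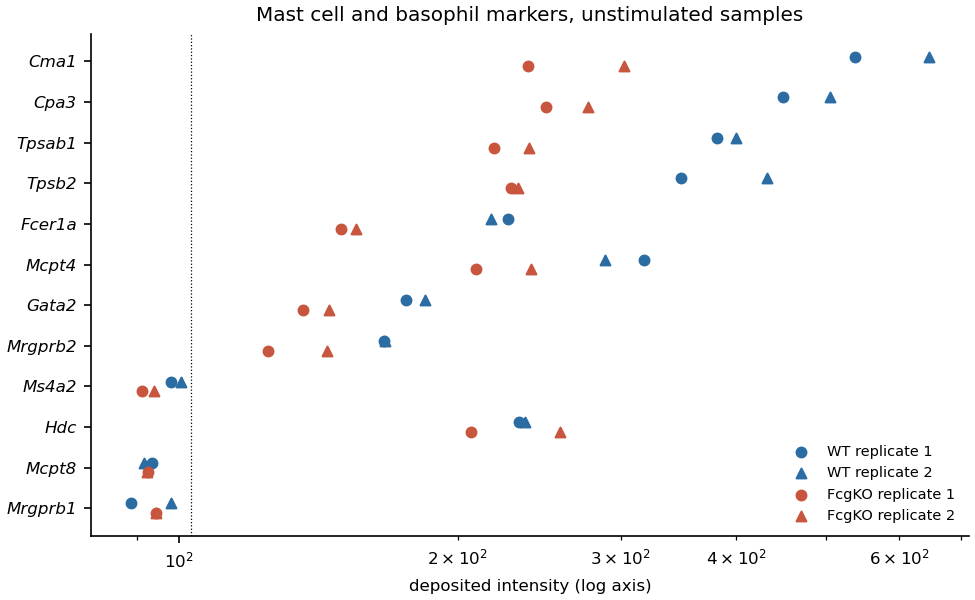
Deposited intensity (horizontal log axis) of the 12 measured markers of mast cells and basophils in the 4 unstimulated samples, with WT in blue, FcgKO in red, replicate 1 as circles and replicate 2 as triangles. The dotted line is the array median. The FcgKO marks of Cma1, Cpa3 and Tpsab1 lie left of the WT marks, while Mcpt8 and Mrgprb1 sit at or under the median in both genotypes.

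Markers of other cells that the cultures could hold were called in 1 case. Of 13 neutrophil markers, Mmp9 was the 1 that fell, and S100a8 (log2 -0.47, adjusted p = 0.304) and S100a9 (-0.04) were not called. Summed over the other 12, the intensity was 3811 and 4736 in WT and 3322 and 3428 in FcgKO, and 3 of the 13 were at or under the array median on all 4 arrays. Of 11 B cell, 16 T and NK cell, 6 eosinophil, 10 dendritic cell and 14 mesothelial and fibroblast markers 0 were called. The summed intensity of the B cell markers was 4908 and 3329 in WT and 3991 and 2857 in FcgKO, so that the samples numbered 1 stood above those numbered 2 in both genotypes, as they did with IFNγ (4301 and 2958 in WT, 3154 and 2511 in FcgKO). Fcrla, a gene of B cells close to Fcer1g, read 1490 and 833 in WT and 677 and 517 in FcgKO and was not called (log2 -0.91, adjusted p = 0.363). The part of these other cells in the results above was not tested. Beside a share of 0.542% called over all genes, a count of 0 in a short list says little. Lists of macrophage genes with 0 calls were 28 type I interferon genes (median log2 difference -0.09), 14 IFNγ-inducible GTPases (-0.04), 15 genes of MHC class II presentation (-0.08), 18 Toll-like receptors and adaptors (-0.04), 18 scavenger and dead-cell uptake receptors (0.04), 18 complement genes (0.03) and 14 alternative activation genes (0.01). Further lists without a call were 12 chemokine receptors (-0.03), 23 genes of cholesterol and fatty acid metabolism (0.06), 19 of glycolysis (-0.09), 22 of the cell cycle (0.03), 19 of protein and amino acid stress (0.04) and 9 of colony-stimulating factors and their receptors (-0.02). Of 18 iron-handling genes Hp was the 1 called (-0.04). Summed intensities of lists without a call could still differ, in either direction. The complement sum was 29019 and 33854 in WT and 39693 and 46700 in FcgKO. The sum of the Toll-like receptors and adaptors was 39947 and 33467 in WT and 30798 and 30070 in FcgKO. Both sums kept this order with IFNγ. A sum follows its brightest genes, and these differences were not tested.

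The samples with IFNγ offer the same genotype comparison in arrays that the unstimulated contrast did not use, although both contrasts share each probe's estimate of the spread. There 405 of 16593 genes were called (2.44%), and the count of called probes, 513, was 168 and 149 without WT replicate 1 and 2 and 232 without FcgKO replicate 2 of the samples with IFNγ. Of the 90 genes called without stimulation, 86 had the same sign with IFNγ and 72 were called there too. How many of all genes had the same sign in both conditions was not counted, so the 86 have no share to stand beside. In the window around Fcer1g 16 of 114 genes were called with IFNγ (14.0%), 10 of them in both conditions, against 389 of 16479 elsewhere (2.36%). Differences of about the same size in both conditions were measured for Fcgr3 (log2 1.22 without and 1.21 with IFNγ), Mmp9 (-2.10 and -2.08), Gsta3 (-1.39 and -1.40), Hp (-2.09 and -1.91) and Uap1 (-2.10 and -2.22).

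Some genes had a larger difference with IFNγ, where the test of the change between conditions did not pass. Fcgr1 read 986 and 932 in WT and 1967 and 2066 in FcgKO with IFNγ, a log2 difference of 1.07 beside 0.34 without (adjusted p of the change 0.0517). Ifi202b read 94.6 and 95.3 in WT and 1076 and 1287 in FcgKO with IFNγ, at least 11.4-fold higher (adjusted p of the change 0.0520). Ccl7 had a log2 difference of 2.22 beside 1.25, and Clec4e of -1.36 beside -0.70, with adjusted p of the change of 0.287 and 0.241. Of the NF-κB list 11 of 25 genes fell and 0 rose with IFNγ, of the mast cell markers 7 of 12 fell, and of the redox genes 7 of 32. The share called over all genes was higher with IFNγ as well, 2.44% beside 0.542%, so these counts alone show no larger difference. The median log2 difference with IFNγ was -0.60 for the NF-κB list, beside -0.31 without. It was -0.53 beside -0.39 for the mast cell markers and -0.11 beside -0.13 for the redox genes. Ccl2 was called with IFNγ (log2 1.73, adjusted p = 0.0017), and so were Tnf (-1.04, adjusted p = 0.0140) and Fcer1a (-0.62, adjusted p = 0.0126). Enc1 and Olfml2b had opposite signs in the conditions, at -0.24 and 0.06 with IFNγ, where neither was called.

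**Figure D5:**
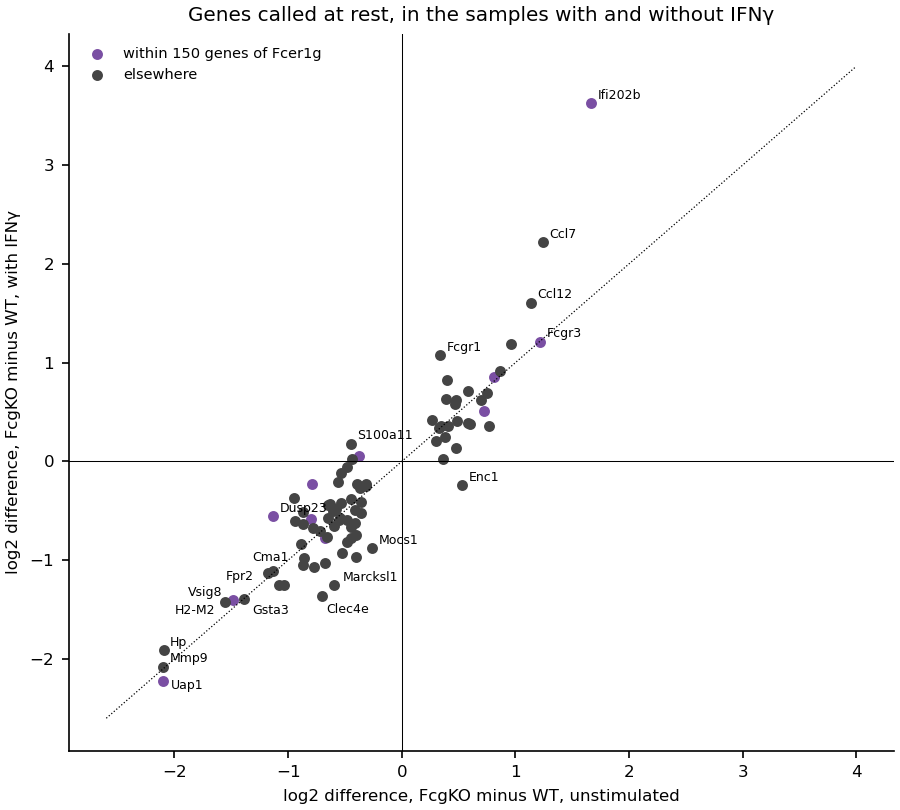
Log2 difference between FcgKO and WT with IFNγ (vertical axis) against that without stimulation (horizontal axis), for the genes called without stimulation other than Fcer1g. Purple points lie within 150 genes of Fcer1g and dark points elsewhere, and the dotted line marks equal differences. Ifi202b, Ccl7 and Fcgr1 stand above the line, Clec4e below it, and Enc1 changes sign.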

How the data were processed

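The authors deposited linear intensity values per probe, and the submitters' processing notes name GenomeStudio, without a version. These intensity values were already normalised between arrays, since no sorted log2 value differed between arrays by more than 0.00585, and not background-subtracted (lowest value 82.1). A further table, with 16 columns that carry array numbers and match no sample, was not used. Of 25697 probes, 23978 had a gene symbol and 1719 none, and 23962 matched RefSeq (GRCm38.p6), used for names and gene order. A model with a mean for each of the 4 groups was fitted to the log2 values of all 8 samples (limma 3.58.1, R 4.3.3 with version 1.17.8 of the package data.table; 4 residual degrees of freedom, prior 3.85). Benjamini-Hochberg adjustment ran over all probes with a symbol. For a few values, 2 against 2 samples allow no exact p under 0.333. A probe at or under the array median on every array of a group has a lower limit: the brighter group's mean log2 value against, per array, the higher of the median and the probe's own value. The rule for named genes took Fcer1g, called genes in the window, the 12 highest and 12 lowest called elsewhere, and up to 4 called members of each of 42 lists, with provisional names replaced by the next gene. Alternatives were background correction, 1 probe per gene, a filter on dim probes, other samples in the fit, a replicate block, a variance trend and other windows. The members and lists were chosen with earlier results of these data known. The fit was tested on simulated data of 23978 probes. The number of arrays limits the precision.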

Additional observations from a re-analysis of the deposited data

Results flagged for a closer look

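For 2 genes the genotype difference changed between the conditions in a test of that change over all probes. Lrrc75a, a protein with leucine-rich repeats, read 219 and 258 in WT and 239 and 228 in FcgKO without stimulation (log2 -0.03), and 818 and 926 in WT and 327 and 300 in FcgKO with IFNγ (log2 -1.47). The change was -1.45 on the log2 scale (SE 0.13, limma adjusted p = 0.0409). Mocs1, an enzyme of molybdenum cofactor synthesis, read 788 and 770 in WT and 656 and 644 in FcgKO without stimulation (log2 -0.26), and 1367 and 1348 in WT and 746 and 735 in FcgKO with IFNγ (log2 -0.87). Its change was -0.61 (SE 0.06, adjusted p = 0.0409). In both genes every sample with IFNγ showed the direction, but the genes were picked by this test, so that adds no support. A second Lrrc75a probe changed too (log2 -1.28, limma adjusted p = 0.0409). Lrrc75a probes near the array median were not called (0.01 and -0.04).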

How the results depend on the processing

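None of the 48 named genes other than Fcer1g changed the direction of its unstimulated difference under any alternative run. Of 111 called probes (35 higher, 76 lower; 78 genes called elsewhere), background correction by normexp with an offset of 50 gave 178 (58 and 120; 125 genes), a trend in the prior variance 189 (67 and 122; 134), and the replicate block 199 (74 and 125; 148). The labels give equal replicate numbers nothing in common. Deviations of equal numbers correlated with r from -0.0494, for the unstimulated groups, to 0.250, above 0.1 in 3 of 6 pairs of groups, and were not taken as pairs because this did not hold in all 6. Some sums did follow the replicate number in all 4 groups. Those of the B cell markers were higher in replicate 1, and those of the complement genes in replicate 2. Whether equal numbers share anything was not tested. With the unstimulated samples alone, 19 probes were higher and 50 genes elsewhere were called, and 27 of 48 named genes other than Fcer1g kept their calls. All 48 kept them with 1 probe per gene and with the block, 47 with the filter on dim probes and with an offset of 50, 46 with the trend and 39 with an offset of 16. A window of 50 genes held 6 called genes. Leaving out 1 sample at a time gave 25 to 167 called probes, 4 to 63 higher, 19 to 114 lower, 5 to 14 genes called near Fcer1g, 13 to 123 elsewhere, and 149 to 595 called probes with IFNγ. A sample left alone in its group was taken to vary like the other groups. Members called ranged, with all samples kept or the unstimulated ones alone, from 4 to 7 for the 25 NF-κB genes, 3 to 6 for the 12 mast cell markers and 1 to 4 for the 18 CC chemokines, and fell as low as 0 for each with 1 sample left out. The cause of these shifts was not tested. Probes near the array median, under which 5852 genes lay on all arrays, limit what can be seen of dim genes.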
